A study of Rattus norvegicus with 60 samples.

Results

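The genes of oxidative phosphorylation were taken as all genes of the count table whose symbol began with Mt-, Ndufa, Ndufb, Ndufc, Ndufs, Ndufv, Uqcr, Cox4i, Cox5, Cox6, Cox7, Cox8 or Atp5, together with Sdha, Sdhb, Sdhc and Sdhd, and without the assembly factors named Ndufaf. This rule gave 99 members among 20662 genes, 86 encoded in the nucleus and 13 in mitochondrial DNA. The rule used symbols only and no measured value. Cyc1, the cytochrome c1 subunit of complex III, has a symbol outside the rule and was treated with the electron carriers.

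Skeletal muscle of the right hind limb was sequenced as poly-A selected RNA in 60 libraries from male Sprague-Dawley rats of 6 to 7 weeks. The control group held 6 libraries from uninjured rats, and the injured groups, bruised once by a falling weight, held 8 libraries each at 8, 12, 16, 24 and 48 h and 7 libraries each at 4 and 20 h. Each library is taken as a separate rat, and the tissue came from the wound site. By the methods, the centre of the damage was used for histology. The rest of the sample, freed of fascia, was used for sequencing. The methods describe anaesthesia with chloral hydrate and hair removal for the injured rats before the blow, whereas control rats were killed directly, so that the blow and these steps cannot be told apart. The columns held between 16372673 and 34931323 counts.

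The headings of the 60 columns did not belong to the values beneath them. Of 49 libraries that could be read in the study's own table, 49 matched exactly 1 column over 1288 genes, with 99.7 to 100% of genes within 0.5 read. Only 12 of the 60 headings named the group of their column. Groups were therefore taken from the position of the columns, and 49 of the 49 matched libraries lay in the group so given. The other 11 columns matched no readable library and have their group by position alone. Of these, 6 belong to the 48 h group, 2 to the 12 h group and 1 each to those of 4, 8 and 20 h. The study itself used 53 libraries after removing samples it called abnormal. It kept 6, 7, 6 and 6 libraries at 4, 8, 12 and 20 h, as many as the matched columns there. The unmatched columns of these times are thus not among the libraries it kept. Among these columns, library 1 at 4 h had the lowest level of nuclear members in its group, whereas library 6 at 12 h and library 4 at 20 h lay at or above the control range. Counts of members called and the values of the leading genes at 48 h are also given with only the matched columns. The extraction text of the labels names retinas. Of 8 retina markers in the table, 6 had a median under 0.1 CPM, the highest being Rom1 at 2.30 CPM and Gnat1 at 0.54 CPM, while the sarcomere genes held a median of 258729 CPM in the control libraries.

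Oxidative phosphorylation is carried out by 4 respiratory complexes and the ATP synthase of the inner mitochondrial membrane. Complexes I, III and IV pump protons while electrons pass from NADH to oxygen, complex II feeds in electrons from succinate, and complex V uses the proton gradient to make ATP. Complex II is built from nuclear genes only, and the other complexes combine nuclear and mitochondrial products. Several subunits of complex IV exist as a muscle form and a widely expressed form, and skeletal muscle fibers are among the tissues richest in these complexes.

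Complexes were assigned by the start of the symbol alone, so that Ndufa4 and Ndufa4l2 were counted with complex I. By this rule, the nuclear members were 38 of complex I, 4 of complex II, 8 of complex III, 19 of complex IV and 17 of complex V. The mitochondrial members were 7 of complex I, 1 of complex III, 3 of complex IV and 2 of complex V. Of the 99 members, 96 passed the filter of at least 5 reads over all columns. The 3 that did not, Cox6c-ps1, Cox7b2 and Cox8c, had 0 reads in each of the 60 columns. Among the members that passed, Cox7a1, Ndufa1, Cox6b2 and Ndufs6 were barely counted, with median reads of 4, 7, 11 and 17.5 per column. Only uniquely placed reads were counted, so the low values of these 4 genes are uncertain.

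Most members were lower than control at 4, 8, 16, 24 and 48 h, and with TMM scaling by more at 24 and 48 h than before. At 12 and 20 h, 36 and 14 of the 96 tested members passed. The summed level of the 83 nuclear members that passed the filter had a median of 33732 CPM in control libraries (range 29259 to 36351). CPM are counts relative to the size of the library, scaled by the trimmed mean of M values (TMM). The median was 23724 CPM at 4 h and 12356 CPM at 48 h, where the range was 9753 to 19914 CPM. The sum of the 13 mitochondrial members had a median of 238533 CPM in control libraries (range 214032 to 289546), 185973 CPM at 4 h and 98486 CPM at 48 h (range 80147 to 133311). At 24 and 48 h, both sums lay below the lowest control library in all 8 libraries of each group. The nuclear sum overlapped control at 8, 12, 16 and 20 h, where the highest libraries had 31882, 36158, 30102 and 37928 CPM, and those at 12 and 20 h were columns matched to no readable library. The mitochondrial sum overlapped control at 8 and 20 h, with highest values of 215165 and 235507 CPM. In bulk tissue, fewer muscle cells and less RNA per cell cannot be told apart.

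**Figure D1:**
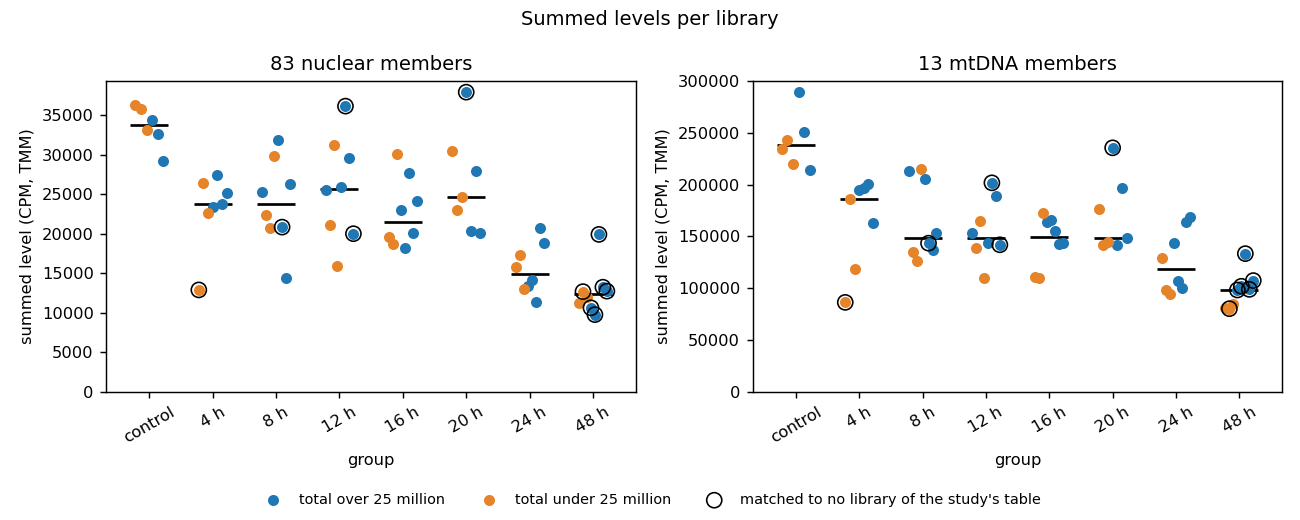
Each point is 1 library and the bars are group medians, with the summed level in CPM on the y axis and the group on the x axis. Colors give the total count of the column, and circles mark the 11 columns matched to no readable library. The 48 h libraries lie between 9753 and 19914 CPM for the nuclear sum, all below the control libraries.

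Each gene was tested against control with edgeR's quasi-likelihood test, and called at a Benjamini-Hochberg adjusted p under 0.05 over the 17155 genes tested. At 4 h, 63 of 83 nuclear and 9 of 13 mitochondrial members were lower, with median log2 fold changes of -0.72 and -0.55, where 22.2% of all genes were lower. At 8 h, 60 nuclear and 8 mitochondrial members were lower (medians -0.57 and -0.52), against 25.9% of all genes. At 12 h the counts were 28 and 8 (medians -0.41 and -0.61), against 13.1% of all genes. At 16 h they were 64 and 10 (medians -0.63 and -0.71), against 16.9%. At 20 h they were 8 and 6 (medians -0.37 and -0.49), against 6.61%. At 24 h, 73 nuclear and 10 mitochondrial members were lower (medians -1.11 and -0.94), against 20.1% of all genes. At 48 h, 77 and 11 were lower (medians -1.41 and -1.27), against 18.2%. With a further limit of a log2 fold change under -1, 59 members remained at 24 h (8.67% of all genes) and 85 at 48 h (6.83%).

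In the other direction, edgeR called 0 members higher from 4 to 24 h, and 0 also at an unadjusted p under 0.05. DESeq2 likewise called 0 at these times, while edgeR with column totals called 3 at 24 h. Over all genes, the share called higher was 22.8, 24.6, 19.1, 20, 12.9 and 21.9% at these 6 times in order. At 48 h, 1 member was higher, against 23% of all genes. In a single test for any difference among the 8 groups, 91 of 96 members passed, where 75.7% of all genes did.

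At 4 h, 65 members rather than 72 were lower without library 1, where 4051 of 17134 genes were lower. The counts at 12 and 20 h depended on single libraries. Without library 6 at 12 h, 63 members rather than 36 were lower than control, where 2820 of 17148 genes were lower. Without library 4 at 20 h, 46 rather than 14 were lower, where 1672 of 17146 genes were. With only the 49 matched columns, of which 2 belong to the 48 h group, 66, 66, 51, 79, 52, 84 and 84 members were lower at the 7 times in order. Of 16991 genes in these columns, 4024, 4441, 2318, 3147, 1810, 3445 and 1754 were lower. There the 48 h log2 fold changes were -2.205 for Cox8b, -2.35 for Ndufb5, -1.98 for Atp5mc1, -1.46 for Atp5f1b and -1.45 for Mt-co1. Cox6a1 was called higher (0.52, adjusted p = 0.016, edgeR) and Cox4i2 was no longer called (-0.57, adjusted p = 0.077).

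**Figure D2:**
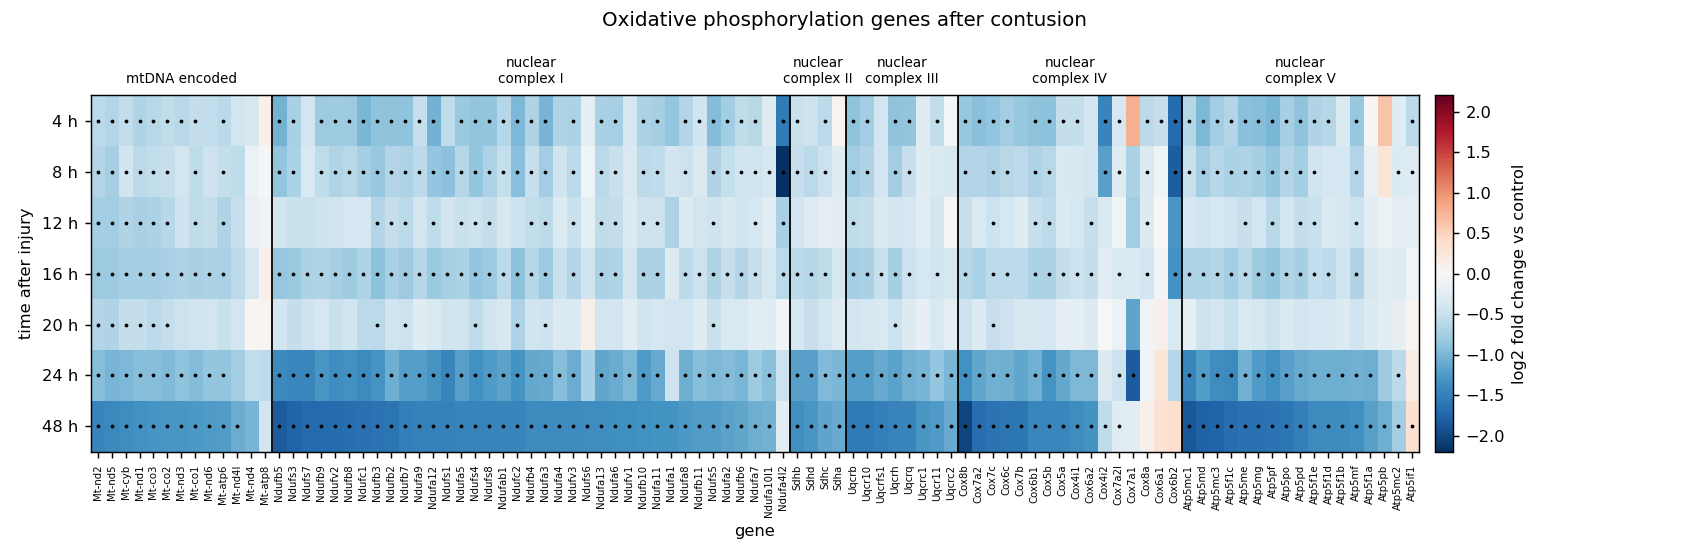
Rows are time points and columns are 95 of the 96 tested members, grouped by genome and complex and ordered within each by the 48 h value. Color gives the log2 fold change against control, and dots mark an adjusted p under 0.05 in edgeR. At 48 h, 1 member is higher, and the few pale columns at the right of complexes IV and V are described in the text.

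Between neighbouring time points, the step from 20 to 24 h held most of the change. Of 96 members, 70 were called lower at 24 than at 20 h, all of them nuclear, where 4.33% of all genes were lower. The 13 mitochondrial members also had negative values in this step, with a median of -0.42 (range -0.64 to -0.29), and 0 were called. Without library 4 at 20 h, 42 members rather than 70 fell in this step, where 280 of 17146 genes fell. From 24 to 48 h, 4 members fell further, against 2.49% of all genes. These were Cox8b, Cox7c, Atp5me and Mt-nd2, with log2 fold changes of -0.69, -0.57, -0.59 and -0.52. The other steps held at most 3 members. Atp5if1 and Cox6a1 rose from 4 to 8 h (0.30 and 0.41 on the log2 scale) and Ndufa4l2 fell (-0.62), where 9.45% of all genes rose and 7.93% fell. Cox4i2 and Ndufa4l2 rose from 8 to 12 h, by 0.87 and 1.47, and 0 members fell, where 12.4% of all genes rose and 9.94% fell. The shares of members called in both steps were thus below those of all genes. From 12 to 16 h, edgeR called 0 members, and 7 were lower and 0 higher at an unadjusted p under 0.05, where 0.536% of all genes fell and 0.0933% rose. From 16 to 20 h it called 0, with 11 higher and 0 lower unadjusted, where 0.659% of all genes fell and 1.25% rose. DESeq2 called 0 and 1 member in these steps. From 20 to 24 h and from 24 to 48 h edgeR and DESeq2 called 0 members higher (0 and 4 unadjusted in edgeR), where 1.61% and 3.61% of all genes rose.

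The scaling moved all genes, not only the members. For genes averaging 10 or more reads, the median log2 fold change at 48 h was 0.05 with TMM and 0.66 with column totals alone. The members' median was -1.38 and -0.78, so that members lay 1.43 and 1.44 below the median of all genes. At 24 h the members lay 1.11 and 1.13 below it, and at 4 h 0.64 and 0.68. With column totals alone, the members' own median was -0.63 at 4 h and -0.57 at 24 h, so that this median was then not lower at 24 h. With this scaling 80 and 77 members were lower, where 3073 and 1280 of 17155 genes were lower.

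Complex I, the NADH dehydrogenase, had 38 nuclear members, of which 30 were lower at 4 h, 35 at 24 h and 37 at 48 h. Ndufb5, an accessory subunit of the membrane arm, was lower already at 4 h, with a log2 fold change of -1.05 ± 0.29 (SE), and had the lowest value of the complex at 48 h (-1.83 ± 0.29, adjusted p = 6.2e-07, edgeR). Its levels ran from 118.9 to 233.9 CPM in control libraries and from 25.95 to 98.64 CPM at 48 h, without overlap. Ndufb5 was 1.67-fold higher in the 36 columns with totals over 25000000 than in the 24 with lower totals. In the columns of lower total it measured 118.9 to 159.5 CPM in control libraries and 25.95 to 33.93 CPM at 48 h. In the others it measured 178.8 to 233.9 CPM and 43.01 to 98.64 CPM, so that the groups did not overlap within either kind of column. Among members with a median of at least 10 CPM, Ndufa10l1 lay at the other end with -1.04 ± 0.16 at 48 h.

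All 4 subunits of complex II, succinate dehydrogenase, were lower at 24 and 48 h, with medians of -1.10 and -1.21. Sdha, the flavoprotein that oxidizes succinate, measured 466.5 to 598.0 CPM in control libraries (median 546.2). At 4 h it ranged from 288.8 to 739.3 CPM (median 589.8), a log2 fold change of 0.06 ± 0.21. At 48 h it ranged from 157.3 to 473.0 CPM (median 210.4) and 1 library reached the control range. The change there was -1.11 ± 0.20 (adjusted p = 1.3e-05, edgeR). Sdhb, the iron-sulfur subunit, was lower at 4 h (-0.50 ± 0.18) and at 48 h (-1.35 ± 0.18).

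Complex III, the cytochrome bc1 complex, had 5 of 8 nuclear members lower at 4 h and 8 of 8 at 24 and 48 h. Uqcrb, a small subunit close to the quinone pocket, fell early. Its levels were 323.1 to 415.0 CPM in control libraries and 102.9 to 236.3 CPM at 4 h, with no overlap (-0.88 ± 0.20, adjusted p = 0.00022), and 93.0 to 189.4 CPM at 48 h (-1.56 ± 0.19). The core protein Uqcrc2 measured 371.5 to 422.2 CPM in control libraries and 218.7 to 491.2 CPM at 4 h, with a change of -0.03 ± 0.23. At 48 h the change was -1.11 ± 0.22 (adjusted p = 4.5e-05). Uqcrfs1, the Rieske iron-sulfur protein and the member of highest level, had -0.43 ± 0.19 at 4 h (adjusted p = 0.063) and -1.50 ± 0.19 at 48 h.

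Complex V, the ATP synthase, had 13 of 17 nuclear members lower at 4 h, 15 at 24 h and 16 at 48 h. Its catalytic subunit Atp5f1b was the nuclear member of highest level. It measured 3500 to 4413 CPM in control libraries (median 4114), 1721 to 4078 CPM at 4 h (median 3398) and 1111 to 2528 CPM at 48 h (median 1439). The 48 h libraries did not reach the control range, and the change was -1.38 ± 0.19 (adjusted p = 2.7e-08, edgeR). Atp5mc1, which encodes the c subunit of the rotor ring, had the lowest value of the complex at 48 h (-1.87 ± 0.21, adjusted p = 3.4e-10). Its control range of 359.9 to 550.8 CPM became 91.57 to 210.8 CPM. For the other c subunit genes, chosen after their values were seen, the 48 h changes were -1.76 (Atp5mc3) and -0.76 (Atp5mc2), although all c genes code for the same mature protein.

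Atp5if1, the inhibitor that blocks ATP hydrolysis by the synthase when the gradient collapses, was the member called in both directions. It measured 54.08 to 67.89 CPM in control libraries (median 56.71) and 29.29 to 47.63 CPM at 4 h (median 40.69), all 7 below control. The median was 48.16 CPM at 8 h, 63.53 CPM at 24 h and 77.11 CPM at 48 h. The 48 h range of 49.32 to 95.38 CPM overlapped control. It was lower at 4 h (-0.59 ± 0.11, adjusted p = 1.4e-05) and higher at 48 h (0.33 ± 0.11, adjusted p = 0.010, edgeR). The 48 h call was lost in the 24 columns of lower total alone (0.40, adjusted p = 0.10) and in the 36 of higher total alone (0.28, adjusted p = 0.15).

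In complex IV, cytochrome c oxidase, 12 of 16 tested nuclear members were lower at 48 h and 0 were higher. The 4 others, Cox7a1, Cox8a, Cox6a1 and Cox6b2, had values of -0.24, 0.11, 0.31 and 0.37, none called over all columns with edgeR and TMM. The lowest value of all members was that of Cox8b, the heart and skeletal muscle form of subunit 8, and the widely expressed form Cox8a was among the exceptions.

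Cox8b measured 377.7 to 471.1 CPM in control libraries (median 419.8), 106.1 to 315.8 CPM at 4 h (median 245.6), 104.2 to 241.2 CPM at 24 h (median 161.1) and 58.02 to 190.2 CPM at 48 h (median 101.2). None of these 3 groups overlapped control. The log2 fold change at 48 h was -2.03 ± 0.23, or 4.08-fold lower (adjusted p = 8.1e-10, edgeR). Cox8a measured 59.15 to 73.39 CPM in control libraries (median 68.16), 39.48 to 57.24 CPM at 4 h (median 44.54), 56.85 to 68.53 CPM at 24 h (median 63.76) and 47.16 to 91.78 CPM at 48 h (median 77.80). It was thus below control at 4 h (-0.57 ± 0.11, adjusted p = 1.6e-05) and overlapped control at 48 h (0.11 ± 0.10, adjusted p = 0.42). With column totals alone, Cox8a was called higher at 48 h (0.74).

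The ratio of both forms within a library does not depend on the scaling. The log2 ratio of Cox8a to Cox8b was -2.63 ± 0.10 (SD, n = 6) in control libraries, -1.34 ± 0.42 (n = 8) at 24 h and -0.45 ± 0.74 (n = 8) at 48 h. The differences were 1.29 and 2.18, and the groups did not overlap (both adjusted p = 0.0029, exact permutation test, two-sided, over 35 tests of 5 pairs at 7 times). The difference at 20 h was 0.41 (adjusted p = 0.044), and those from 4 to 16 h lay between 0.23 and 0.38 and did not pass.

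The promoters of both genes are shown because the forms share a subunit and differ in their response. RefSeq sequences of the GRCr8 build were used, from 250 bases before to 50 after the start site. The window of Cox8a is chr1:213833574-213833873 and that of Cox8b is chr1:205408224-205408523, both on the minus strand and printed in the direction of the gene. That of Cox6a2, the muscle form of subunit 6a, is chr1:192219667-192219966, also on the minus strand. Capitals mark exact matches on either strand. The letters searched were CCGGAAG for the ETS type, AAGATGGC for the YY1 type and CAGCTG for an E box, the element bound by muscle regulators. The TATA box was searched with the letters TATAAA, and the NRF1 type with the letters GCATGCGC. The nuclear receptor site was searched as AAGGTCA. The SP1 type was searched with the letters GGGCGG.
Cox8a: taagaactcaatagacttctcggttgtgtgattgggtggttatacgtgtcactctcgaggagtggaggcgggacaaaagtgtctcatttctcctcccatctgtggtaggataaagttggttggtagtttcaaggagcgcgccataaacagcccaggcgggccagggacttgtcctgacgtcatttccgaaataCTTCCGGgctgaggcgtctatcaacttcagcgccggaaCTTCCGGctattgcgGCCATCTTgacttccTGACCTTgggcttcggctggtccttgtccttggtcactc
Cox8b: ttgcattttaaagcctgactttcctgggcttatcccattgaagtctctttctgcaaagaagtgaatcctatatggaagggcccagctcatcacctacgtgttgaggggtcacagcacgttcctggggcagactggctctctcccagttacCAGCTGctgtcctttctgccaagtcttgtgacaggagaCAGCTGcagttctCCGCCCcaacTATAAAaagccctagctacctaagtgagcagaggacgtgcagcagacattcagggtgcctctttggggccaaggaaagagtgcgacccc
Cox6a2: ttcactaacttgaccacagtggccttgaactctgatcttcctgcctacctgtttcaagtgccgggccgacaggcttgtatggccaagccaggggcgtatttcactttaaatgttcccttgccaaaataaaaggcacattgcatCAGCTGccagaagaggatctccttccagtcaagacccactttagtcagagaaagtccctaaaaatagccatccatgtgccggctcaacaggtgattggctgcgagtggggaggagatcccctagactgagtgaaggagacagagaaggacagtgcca

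The Cox8a window held 2 ETS-type matches, starting 57 and 19 bases before the start site, 1 YY1-type match starting 4 bases before it and 1 nuclear receptor site starting 11 bases after it. The Cox8b window held 2 E boxes, 100 and 62 bases before the start site, 1 SP1-type match 49 bases before it and 1 TATA-type match 39 bases before it. The Cox6a2 window held 1 E box at 107 bases. In these 3 windows, 0 matches overlapped. Promoters were found for 75 of 86 nuclear members. An ETS-type match was present in 28% of them and in 9.22% of 27457 rat promoters of the same length. A YY1-type match was present in 21.3% and 3.44%, and an NRF1-type match, whose copies on opposite strands can overlap, in 12.0% and 2.66%. A nuclear receptor site was present in 14.7% and 4.37%, and an SP1-type match in 42.7% and 34.9%. An E box was present in 16.0% and 15.1%, and a TATA-type match in 9.33% and 14.3%. Of the 75 promoters, 35 held at least 1 match of the ETS, YY1 or NRF1 type. The share of all rat promoters with at least 1 of these types is not given here, so this count has no background. The 75 include those of Cox7b2 and Cox8c, which had 0 reads, and the Cox8c window held an NRF1-type match. A match of letters describes the sequence and was not tested as a site.

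Cox6a1 and Cox6a2, the widely expressed and the muscle form of subunit 6a, parted in the same way. Cox6a2 measured 1114 to 1419 CPM in control libraries (median 1328), 416.2 to 788.5 CPM at 24 h (median 670.2) and 316.5 to 799.9 CPM at 48 h (median 490.0). All 16 libraries of these times were below control, with changes of -0.996 ± 0.19 and -1.31 ± 0.19 (adjusted p = 2.3e-05 and 1.4e-07, edgeR). Cox6a1 measured 87.10 to 119.2 CPM in control libraries (median 98.72) and 61.99 to 83.45 CPM at 4 h, all below control (-0.51 ± 0.14, adjusted p = 0.0016). At 48 h it ranged from 81.28 to 167.8 CPM (median 135.5), a change of 0.31 ± 0.13 that did not pass (adjusted p = 0.054). It passed with DESeq2 (0.32, adjusted p = 0.043), with the column total as a term (0.34, adjusted p = 0.030, edgeR), with only the matched columns (0.52, adjusted p = 0.016) and with column totals as the scaling (0.95). The log2 ratio of Cox6a1 to Cox6a2 was higher than control by 0.46 at 20 h (adjusted p = 0.026), by 1.28 at 24 h and by 1.62 at 48 h (both adjusted p = 0.0029, exact permutation test).

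**Figure D3:**
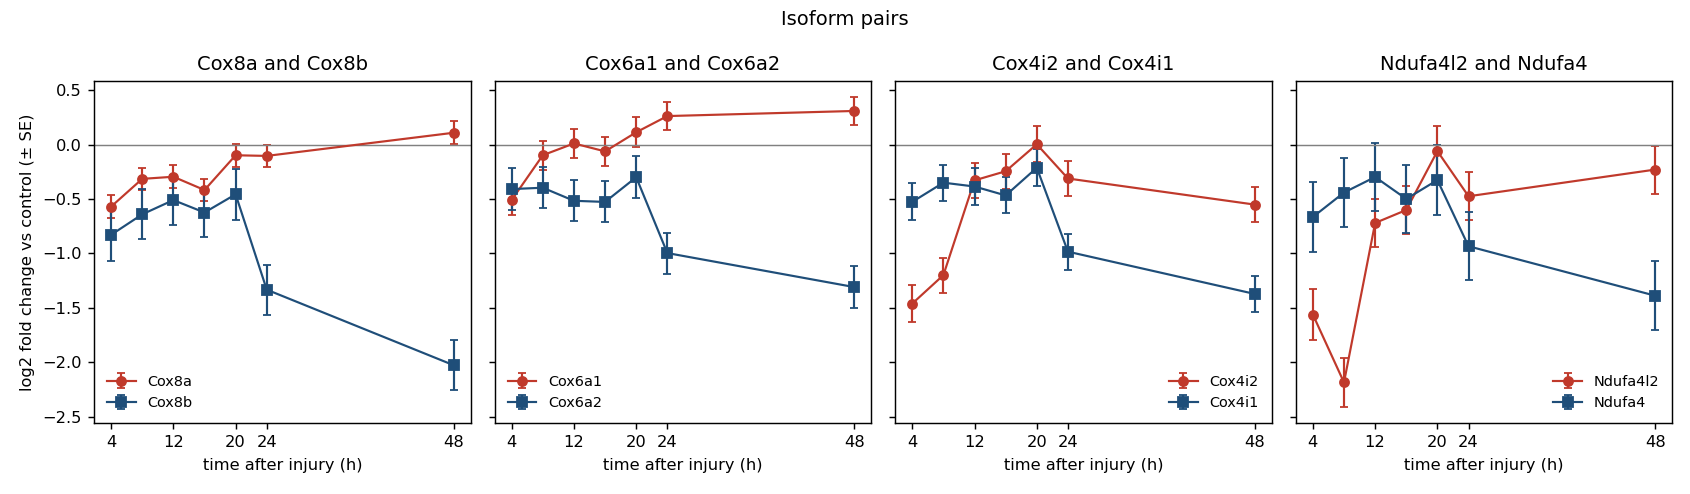
Log2 fold change against control with its SE (y axis) is plotted over hours after injury (x axis) for the members of 4 isoform pairs. At 48 h Cox8b stands at -2.03 and Cox8a at 0.11, whereas Ndufa4l2 and Cox4i2 have their lowest values at 8 and 4 h.

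Cox4i2 and Ndufa4l2, alternative forms of Cox4i1 and Ndufa4 that are known for expression in lung, pericytes or under hypoxia, had another course. Cox4i2 measured 6.21 to 8.93 CPM in control libraries, 2.14 to 3.54 CPM at 4 h and 2.72 to 5.04 CPM at 8 h. Neither group overlapped control, with changes of -1.46 ± 0.17 and -1.20 ± 0.16 (adjusted p = 3.6e-10 and 1.3e-08, edgeR). At 48 h Cox4i2 had -0.55 ± 0.16 (adjusted p = 0.0044), and 0.06 with column totals alone. Cox4i1 had -0.53 ± 0.17 at 4 h and -1.37 ± 0.17 at 48 h. The log2 ratio of Cox4i2 to Cox4i1 thus lay below control at 4 and 8 h, by -0.93 and -0.85, and above it at 24 and 48 h, by 0.66 and 0.83 (each adjusted p = 0.0029, exact permutation test), and none of these 4 groups overlapped control.

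Ndufa4l2 measured 8.99 to 14.85 CPM in control libraries (median 11.29), 2.34 to 5.79 CPM at 4 h and 0.99 to 3.63 CPM at 8 h (median 2.53). Its change at 8 h was -2.19 ± 0.23 (adjusted p = 1.7e-11), the lowest value of any member at that time. At 48 h it was -0.23 ± 0.22 (adjusted p = 0.43), and 0.40 with column totals. Endothelial markers had a median change of -0.62 at 4 h and -0.32 at 8 h, with 5 and 4 of 8 genes lower and 1 higher at each time. Fibroblast markers had medians of -0.95 and -1.18, with 7 and 6 of 10 lower and 0 and 1 higher. Over all genes, 22.2 and 25.9% were lower and 22.8 and 24.6% higher at these times. The part of these cells in both genes was not tested. The log2 ratio of Ndufa4l2 to Ndufa4 was below control at 8 h by -1.78 and above it at 48 h by 1.21 (adjusted p = 0.0039 and 0.021, exact permutation test). Ndufa4 was 1.99-fold higher in the 36 columns of higher total and Ndufa4l2 0.948-fold, so that the ratio follows the column total. With labels permuted within both kinds of column, chosen after seeing the data, the differences were -1.61 at 8 h and 1.32 at 48 h (both adjusted p = 0.0052, exact permutation test). The ratio then also passed at 4 h (-0.76), 20 h (0.45) and 24 h (0.60). The ratio of Cox7a2 to Cox7a1 passed at 0 of 7 times (smallest unadjusted p = 0.027, exact permutation test, at 48 h), with a median of 4 reads per column for Cox7a1. Permuted within both kinds of column, it passed at 48 h (-1.73, adjusted p = 0.010, exact permutation test).

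The 13 mitochondrial members behaved as 2 sets. For 10 of them, namely Mt-co1, Mt-co2, Mt-co3, Mt-cyb, Mt-nd1, Mt-nd2, Mt-nd3, Mt-nd5, Mt-nd6 and Mt-atp6, the changes at 48 h lay between -1.24 and -1.45. Mt-co1, the catalytic subunit of cytochrome c oxidase, measured 63522 to 89145 CPM in control libraries and 25113 to 43431 CPM at 48 h, with no overlap (-1.26 ± 0.19, adjusted p = 3.6e-07, edgeR). Mt-cyb, the cytochrome b of complex III, had -0.54 ± 0.18 at 4 h and -1.36 ± 0.17 at 48 h. Mt-nd2 had the lowest value (-1.45 ± 0.17, adjusted p = 1.1e-09). Mitochondrial members took a median of 19.4% of all counts in control libraries and 12.4% at 48 h, and their reads were 7.04 and 7.34 times those of the nuclear members.

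Mt-atp8, Mt-nd4l and Mt-nd4 formed the second set, and their levels followed the total count of the column. Every group held 3 columns with totals under 25000000, 24 in all, and the other 36 had totals of 27140720 or more. In control libraries Mt-atp8 measured 52.99 to 64.07 CPM in the columns of lower total and 219.6 to 358.7 CPM in those of higher total. Averaged over the 8 groups, it was 5.13-fold higher in the latter, Mt-nd4l 3.25-fold and Mt-nd4 2.84-fold. Among nuclear members, Cox7b, a small subunit of complex IV, was 3.55-fold higher, Cox7a2 2.06-fold and Ndufa4 1.99-fold. For Mt-atp8, Mt-nd4l and Cox7b both kinds of column did not overlap in any of the 8 groups. Ndufb5, Mt-atp6 and Mt-nd6 were also higher there by more than 0.5 on the log2 scale, while Uqcr10 was lower (-0.503). The other 86 of 96 members differed by at most 0.5, Mt-co1 by 0.29. What separates these columns was not given in the sources used here.

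**Figure D4:**
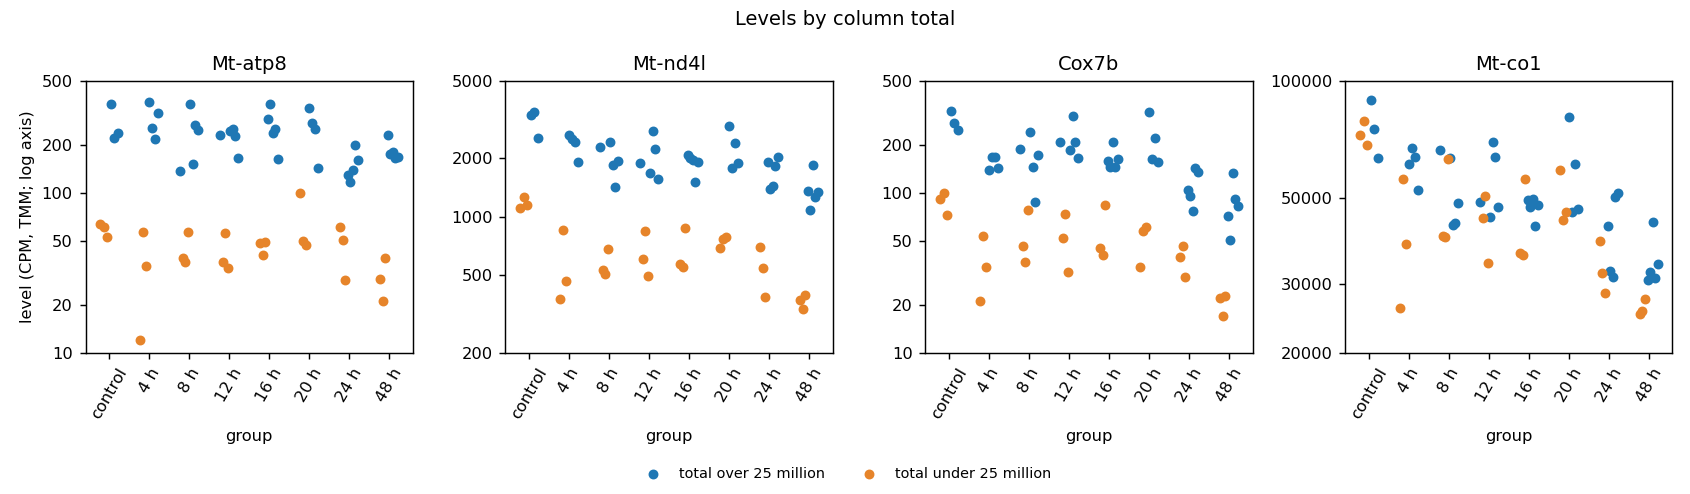
Each point is 1 library, with the level in CPM on a log axis (y) and the group on the x axis. Orange points have column totals under 25000000 and blue points totals over it. The colors separate completely for Mt-atp8, Mt-nd4l and Cox7b and overlap for Mt-co1 in all groups but the 48 h group.

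The calls of these members depended on that split. In the main test Mt-atp8 had -0.40 ± 0.62 at 48 h (adjusted p = 0.64), Mt-nd4 -1.02 ± 0.51 (adjusted p = 0.11) and Mt-nd4l -1.10 ± 0.46 (adjusted p = 0.0496, edgeR). With the split as a term in the fit, the 48 h changes were -0.74, -1.28 and -1.40, with adjusted p of 0.012, 0.023 and 1.3e-09. The number of members lower at 48 h was then 90. Within the 24 and the 36 columns alone it was 85 and 84, beside 88 over all columns. Over all genes, 3185 of 17155 were lower at 48 h with the split as a term. In the 24 and the 36 columns, 1202 of 16558 and 2016 of 16891 genes were lower.

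The members that changed at 24 and 48 h did so beside the genes of the contractile apparatus. Of 15 sarcomere genes, 15 were lower at both times, with medians of -1.29 and -1.56, against 20.1% and 18.2% of all genes. At 4 h 6 of 15 were lower with a median of -0.37, against 22.2% of all genes. Of 9 slow fiber genes, 9 were lower at 24 h and 8 at 48 h (medians -1.52 and -1.29). Neutrophil markers had medians of 5.69 at 4 h, 6.36 at 8 h and 3.03 at 48 h, with 10 of 11 higher at each of these times, and macrophage markers rose to 11 of 12 higher at 48 h (median 2.69). The shares of all genes higher at 4, 8 and 48 h were 22.8, 24.6 and 23%. The summed macrophage level was 239.6 to 396.0 CPM in control libraries and 1246 to 3106 CPM at 48 h. Their part in the members' fall was not tested.

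The nuclear members and the sarcomere genes, each as a mean log2 level per library, had a Pearson correlation of 0.89 across 60 libraries, given as a description of libraries that share their scaling. Within the 8 groups it ran from 0.47 to 0.99. For the slow fiber genes it was 0.65 and ran from -0.59 to 0.78 within groups, so that its sign was not the same in all groups. For the macrophage markers it was -0.76 (-0.94 to -0.09 within groups) and for the neutrophil markers -0.42 (-0.97 to -0.36). For the endothelial markers it was 0.46 (-0.05 to 0.88) and for the fibroblast markers -0.23 (-0.65 to 0.55). The difference between nuclear members and sarcomere genes, both as mean log2 levels, had a median of -5.77 in control libraries, -6.12 at 4 h, -5.40 at 24 h and -5.45 at 48 h. At 4 h, 5 of 7 libraries lay below the control range of this difference, and 2 of 8 lay above it at 8 h. In the 12 h group 7 of 8 libraries lay above it and 1 below. Above it also lay 5 of 8 (16 h), 5 of 7 (20 h), 6 of 8 (24 h) and 7 of 8 (48 h). These differences were not tested.

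**Figure D5:**
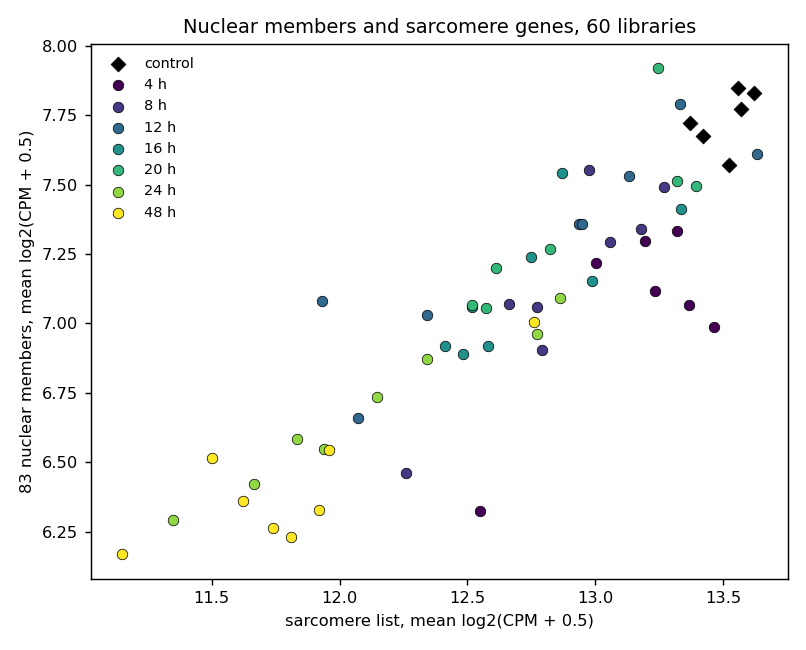
Each point is 1 of the 60 libraries, placed by the mean log2(CPM + 0.5) of the sarcomere list (x axis) and of the 83 nuclear members (y axis), with color giving the group. Control libraries lie at the upper right, and the 24 and 48 h libraries form the lower left of the cloud.

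Of 40 assembly factors, 26 were lower and 2 higher at 4 h, and 34 were lower and 0 higher at 48 h, with medians of -0.49 and -0.61. Over all genes, 22.2% were lower and 22.8% higher at 4 h, and 18.2% and 23% at 48 h. Tmem70, which helps build the ATP synthase, had the lowest value at 48 h (-1.26 ± 0.18), and Cox15, which makes heme a for complex IV, the highest (-0.07 ± 0.17). Of 14 electron carrier genes, Cyc1 of complex III among them, 7 were lower at 4 h and 13 at 48 h (median -1.14). Cyc1 had -0.70 ± 0.20 at 4 h and -1.71 ± 0.20 at 48 h. Coq4, a protein of coenzyme Q synthesis, was the 1 gene of the list called higher, with 3.15 to 4.53 CPM in control libraries and 4.68 to 7.30 CPM at 48 h, which did not overlap (0.70 ± 0.15, adjusted p = 0.00014).

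Of 14 genes of the tricarboxylic acid cycle and the pyruvate dehydrogenase complex, 2 were lower at 4 h and 13 at 24 and 48 h. The shares of all genes lower at these times were 22.2, 20.1 and 18.2%. The median of the list was -1.26 at 48 h. Mdh2, malate dehydrogenase, had -0.58 ± 0.20 at 4 h and -1.58 ± 0.19 at 48 h. The exception was Suclg2, the GTP-forming subunit of succinyl-CoA synthetase, with 62.65 to 72.59 CPM in control libraries and 58.57 to 71.99 CPM at 48 h (-0.05 ± 0.07, adjusted p = 0.61). With column totals it was 0.57 at 48 h, where the median of all genes stood at 0.66.

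Of 16 genes that maintain and transcribe mitochondrial DNA, 5 were lower and 2 higher at 4 h, and 8 were lower and 2 higher at 48 h (medians -0.06 and -0.37). The shares of all genes were 22.2% lower and 22.8% higher at 4 h, and 18.2% and 23% at 48 h. Polg, the catalytic subunit of the mitochondrial DNA polymerase, rose at all 7 time points, by 0.78 ± 0.12 at 4 h and 0.76 ± 0.11 at 48 h. Its levels of 19.58 to 28.76 CPM in control libraries and 35.54 to 52.09 CPM at 48 h did not overlap. Mterf2, a mitochondrial termination factor family member, was lowest at 8 h (-1.58 ± 0.26) and had -1.04 ± 0.26 at 48 h.

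Of 14 regulators of mitochondrial biogenesis, 7 were higher and 2 lower at 4 h, and 2 were higher and 7 lower at 48 h. Over all genes, 22.8% were higher and 22.2% lower at 4 h, and 23% and 18.2% at 48 h. Ppargc1a, the coactivator PGC-1alpha, measured 15.74 to 27.23 CPM in control libraries (median 20.38) and 8.66 to 57.52 CPM at 4 h (median 46.76), where the change was 0.93 ± 0.37 (adjusted p = 0.035, edgeR). In the 24 columns of lower total, which hold 3 libraries of each group, the 4 h value was -0.25. At 48 h Ppargc1a ranged from 3.43 to 15.41 CPM, below the lowest control library (-1.76 ± 0.36, adjusted p = 6.7e-05). Pprc1, a related coactivator, measured 14.09 to 16.73 CPM in control libraries and 67.39 to 163.8 CPM at 4 h (2.81 ± 0.23, adjusted p = 1.8e-14), and at 48 h it was still higher (0.98 ± 0.22). At these times, 72 and 88 of the 96 tested members were lower.

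Among 9 carriers and channels of the mitochondrial membranes, 5 were lower and 2 higher at 48 h, where 18.2% of all genes were lower and 23% higher. Slc25a4, the muscle form of the ADP/ATP carrier, measured 3774 to 4981 CPM in control libraries and 733.7 to 2344 CPM at 48 h (-1.86 ± 0.22, adjusted p = 2.5e-09). Ucp2, an uncoupling protein family member abundant in immune cells, rose from 34.11 to 43.56 CPM in control libraries to 62.55 to 153.0 CPM at 48 h (1.56 ± 0.33, adjusted p = 0.00014), beside the macrophage markers given above.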

How the data were processed

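The authors deposited raw read counts per gene for 60 libraries. By the study's methods, the authors used Trimmomatic for trimming, HISAT2 2.1.0 for alignment to rn6, and HTSeq 0.6.1 to count reads that fell on a single gene and place, in reverse-stranded mode. Column groups followed position, because the headings disagreed with the study's table, and this replaces assignment by name. Within a group, libraries are numbered in column order. 0 columns were left out.

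Genes with a total of at least 5 reads were fitted in edgeR 4.0.16 (TMM, quasi-likelihood, 8 groups, R 4.3.3). Adjusted p-values are Benjamini-Hochberg over 17155 genes per contrast, and SE is the log2 fold change over the root of F. Isoform ratios, with 0.5 read added, used exact permutation tests. Alternatives were DESeq2 1.42.0, column totals, other filters, matched columns, column total as a term, and, chosen after seeing the data, subsets of columns, a replicate block and ratios permuted within column totals. Named genes were both genes of each isoform pair, all Mt- genes, and, per complex, the nuclear members (median at least 10 CPM) with the highest level and the lowest and highest change at 48 h. They further included members called against the majority, and per list the genes (median at least 1 CPM) with the lowest and highest change at 48 h. On simulated counts for 24 h against control, 49 of 50 genes lowered 2-fold and 25 of 50 lowered 1.5-fold were called, with 6 of 16877 unchanged genes. A result of 1 named gene is not reported here. Members and lists were chosen with earlier results of these data known. Each library is taken as a separate rat. CPM come from totals of 16372673 to 34931323, and counting error is small except for the members with few reads.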

Additional observations from a re-analysis of the deposited data

Results flagged for a closer look

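In 3 of 56 groups of values examined for a library far from the others of its group, 1 library stood apart. About 1 in 20 independent groups would by chance, but these groups share libraries and are not independent, so that the rate decides nothing. The summed level of the nuclear members was 12885 CPM in library 1 at 4 h, where the 6 other libraries of that time lay at 22625 CPM or more. The same library had a log2 ratio of Cox6a1 to Cox6a2 of -2.84, the highest of its group. It is a column matched to no readable library and not among those the study kept at 4 h. Its summed macrophage markers (2042 CPM) were the highest of the 4 h group. At 48 h, library 6, also unmatched, had a nuclear sum of 19914 CPM, while the 7 others lay at 13229 CPM or less.

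Effects at neighbouring time points also differed by their direct test. The change against control was lower at 24 than at 20 h for 70 members, at 48 than at 24 h for 4 members and at 8 than at 4 h for 1 member (Ndufa4l2). It was higher at 8 than at 4 h for 2 members (Atp5if1 and Cox6a1) and at 12 than at 8 h for 2 members (Cox4i2 and Ndufa4l2), where 9.45% and 12.4% of all genes were higher.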

How the results depend on the processing

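A replicate block was fitted after seeing the data, on the 49 matched columns, with the library numbers of the study's table. Of 124 pairs of the same number in different groups, 35 had deviations correlated over 0.1 (median 0.030, against -0.0096 for other pairs). Of the 124 pairs, 114 lay within the same kind of column, of lower or of higher total. Within the same kind of column, the median was 0.0366 for pairs of the same number and 0.0372 for other pairs. Closest to another of their own number were 7 of 49 libraries. Libraries of the same number thus mostly shared the kind of column, and within it their median correlation was not the higher. The block gave 58 and 55 members lower at 12 and 20 h, 1 and 0 higher at 24 and 48 h, and 0 lower from 24 to 48 h. Of 16991 genes there, 2406 and 1820 were lower at 12 and 20 h. At 24 and 48 h 4303 and 2772 genes were higher, and 145 fell from 24 to 48 h. The counts of members lower than control at 24 and 48 h stayed within 1.5 times of 83 and 88 under every alternative run. DESeq2, planned, gave 24 members lower at 20 h, 2 higher at 48 h, 1 higher from 16 to 20 h and 7 lower from 24 to 48 h. With it, 1377 of 15155 genes were lower at 20 h and 4160 of 15818 higher at 48 h. From 16 to 20 h 332 of 14822 genes rose, and from 24 to 48 h 481 of 15486 fell. Without a filter, 9 members were lower at 20 h, where 1004 of 20662 genes were. Column totals gave 15, 43 and 6 lower at 12, 16 and 20 h, where 924, 1269 and 408 of 17155 genes were lower. They gave 3 and 4 higher at 24 and 48 h, where 7761 and 8966 genes were higher. Between neighbouring times they gave 0 lower and 8 higher from 4 to 8 h, where 857 genes fell and 1544 rose. They gave 20 higher from 8 to 12 h and 2 higher from 20 to 24 h, where 2836 and 3444 genes rose. From 24 to 48 h they gave 7 lower and 1 higher, where 114 genes fell and 801 rose. With only the matched columns, 52 were lower at 20 h, and 1 and 2 higher at 24 and 48 h. Of 16991 genes there, 1810 were lower at 20 h, and 4393 and 3134 higher at 24 and 48 h. These columns gave 2 lower from 4 to 8 h, 1 lower from 12 to 16 h and 1 lower from 24 to 48 h. Over all 16991 genes, 1617, 506 and 213 fell in these steps. With column total as a term, 2 were higher at 48 h and 7 lower from 24 to 48 h. Of 17155 genes there, 4018 were higher at 48 h and 486 fell from 24 to 48 h. The cause was not tested.

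Subsets chosen after seeing the data hold fewer columns. The 24 of lower total gave 17, 0, 8 and 0 members lower at 8, 12, 16 and 20 h and 0 higher at 48 h. Of 16558 genes there, 2109, 253, 566 and 175 were lower at these times and 1790 higher at 48 h. In each step between neighbouring times these columns gave 0 members. From 4 to 8 h 245 genes fell and 335 rose there, from 8 to 12 h 213 fell and 162 rose, and later steps held 0 genes. The 36 of higher total gave 32, 32, 7, 36 and 0 lower at 4, 8, 12, 16 and 20 h, and 0 higher at 48 h. Of 16891 genes there, 3200, 3085, 899, 1511 and 18 were lower at these times and 2796 higher at 48 h. These 36 columns gave 0 lower and 0 higher members from 4 to 8 h, where 671 genes fell and 1118 rose. They gave 5 lower from 20 to 24 h and 0 lower from 24 to 48 h, where 37 and 197 genes fell. Leaving out library 1 at 4 h, library 6 at 12 h or library 4 at 20 h, 1 at a time, gave 43 to 63 lower at 12 h and 17 to 46 lower at 20 h. From 4 to 8 h it gave 1 to 2 lower and 1 to 2 higher, from 20 to 24 h 42 to 71 lower, and from 24 to 48 h 4 to 7 lower. Of the 17134 to 17148 genes there, 2333 to 2820 were lower at 12 h and 1236 to 1672 at 20 h. From 4 to 8 h 1348 to 1557 genes fell and 1645 to 2229 rose. From 20 to 24 h 280 to 902 genes fell, and from 24 to 48 h 419 to 474. With column totals, the median nuclear sum was 28038 CPM in control libraries, 18175 CPM at 24 h and 15695 CPM at 48 h, and the mitochondrial sum 193559 CPM in control libraries and 124348 CPM at 48 h.

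Of single genes and isoform ratios, 28 values of 1185 changed sign against the value in the report. With column totals these were, at 48 h, Cox4i2 (0.064), Cox7a1 (0.36), Ndufa4l2 (0.40), Mt-atp8 (0.22), Cox15 (0.52) and Suclg2 (0.57), and Suclg2 at 4 h (0.039). With only matched columns, they were Uqcrc2 (0.10) and Suclg2 (0.041) at 4 h, and with DESeq2 Suclg2 (0.017) at 4 h. With column total as a term, Mt-atp8 was -0.25 at 4 h. In the 24 columns of lower total, the 4 h values were Cox7a1 -2.03, Mt-atp8 -0.77, Sdha -0.31, Cox15 -0.044 and Ppargc1a -0.25. In the 36 of higher total, they were Uqcrc2 0.18, Suclg2 0.077 and Ucp2 -0.083 at 4 h, and Cox7a1 0.35, Cox15 0.14 and Suclg2 0.011 at 48 h. Leaving out the 3 single libraries, Uqcrc2 ran from -0.032 to 0.071 and Suclg2 from -0.014 to 0.014 at 4 h, both positive without library 1 at 4 h. With the replicate block, Uqcrc2 was 0.057 and Suclg2 0.027 at 4 h, and Suclg2 0.0054 at 48 h. Permuted within column totals, the ratio of Ndufa4l2 to Ndufa4 was 0.030 at 16 h. Of these, the values of Cox4i2 at 48 h, and of Cox15 and Ppargc1a at 4 h, had been called in the main test. Among 35 isoform ratios, 12 passed, 10 with only the matched columns, where 2 libraries at 48 h against 6 cannot pass, 12 with 1 read added and 16 permuted within column totals.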
